A study of Mus musculus with 32 samples.

Results

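The DNA replication machinery of the tumor cells was followed through 43 mouse genes, taken by symbol from a list. The list was chosen with earlier results of these data known. All 43 were found among the 37310 genes of the count table of brain tumor biopsies. The study asked how medulloblastoma, a malignant tumor of the hindbrain, differs when it is driven by MYC and when it is driven by MYCN. Conventional RNA sequencing was available for 6 GMYC tumors and 8 GTML tumors. GMYC mice carry the Tet-OFF activator tTA under the Glt1 promoter, which is active in glial and progenitor cells, and a human MYC transgene under the tTA-responsive TRE element, both hemizygous on the FVB/N background. GTML mice carry the same Glt1-tTA driver with a MYCN transgene. By the paper, most or all of their tumors were sequenced for earlier work and the GMYC tumors for this study. The labels do not give the sequencing occasion, so model and occasion cannot be told apart in the differences. In both models doxycycline switches the transgene off. Ages of the mice are not in the labels. Each library is 1 biopsy, and the labels do not say whether each came from a separate mouse.

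DNA is copied once per cell cycle. The origin recognition complex, CDC6 and CDT1 load the ring-shaped MCM2-7 helicase on DNA in G1, and geminin holds CDT1 back so that no origin is loaded again. CDC45, the GINS tetramer and MCM10 then turn the ring into a moving helicase, RPA covers the single strands, polymerase alpha with primase starts each strand, and replication factor C places the PCNA clamp that keeps polymerases delta and epsilon on the template. FEN1 and DNA ligase 1 join the lagging strand, and ribonucleotide reductase, thymidylate synthase and dUTPase provide clean nucleotides. Many of these genes are known targets of the E2F factors, and MYC proteins are known to drive cells into S phase.

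The sequence before the start site was examined because E2F binding there is the best known link between these genes. RefSeq promoter windows on GRCm38.p6, from 250 bases before to 50 bases after each annotated start, were available for 35 of the 43 genes. The E2F letters searched on both strands were TTTCCCGC, TTTGGCGC, TTTCGCGC and TTTGCCGC, and a gene counted if any of its windows held one. They stood in 14 of the 35 genes (40.0%), against 2.6% of the 27025 genes with a window and 2.26% of all 32851 windows. The 14 genes were Cdc6, Cdt1, Gins3, Lig1, Mcm3, Mcm5, Mcm6, Mcm7, Orc1, Orc3, Pola1, Pold1, Pole2 and Rfc3. The E-box CACGTG, the letters that MYC and MAX bind, stood in 7 of 35 genes (against 8.09% of all genes), and CCAAT stood in 22 (62.9%, against 41.1%). A match is only a run of letters, and no binding was measured here. The 200 bases before the start are shown for Cdc6, Mcm5 and Mcm6, which hold E2F letters, and for Pcna, Rpa3 and Rfc4, which were higher in GMYC tumors and hold none of the E2F letters. Capitals mark E2F, E-box and CCAAT letters on either strand.
Cdc6: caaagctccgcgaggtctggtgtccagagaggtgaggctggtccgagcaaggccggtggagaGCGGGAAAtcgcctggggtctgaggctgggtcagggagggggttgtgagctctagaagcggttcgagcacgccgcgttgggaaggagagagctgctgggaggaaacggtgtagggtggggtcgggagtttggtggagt
Mcm5: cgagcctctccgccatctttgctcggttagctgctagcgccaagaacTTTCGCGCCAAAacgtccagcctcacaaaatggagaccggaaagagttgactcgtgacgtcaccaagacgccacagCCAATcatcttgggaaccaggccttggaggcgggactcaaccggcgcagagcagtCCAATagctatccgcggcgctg
Mcm6: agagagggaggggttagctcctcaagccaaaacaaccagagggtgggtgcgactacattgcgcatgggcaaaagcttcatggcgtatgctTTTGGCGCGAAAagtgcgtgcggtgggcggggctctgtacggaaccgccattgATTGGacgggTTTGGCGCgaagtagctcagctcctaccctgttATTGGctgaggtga
Pcna: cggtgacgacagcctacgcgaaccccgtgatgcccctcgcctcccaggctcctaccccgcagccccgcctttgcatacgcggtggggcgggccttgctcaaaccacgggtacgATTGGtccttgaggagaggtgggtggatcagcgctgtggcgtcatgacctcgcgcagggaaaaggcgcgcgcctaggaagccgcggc
Rpa3: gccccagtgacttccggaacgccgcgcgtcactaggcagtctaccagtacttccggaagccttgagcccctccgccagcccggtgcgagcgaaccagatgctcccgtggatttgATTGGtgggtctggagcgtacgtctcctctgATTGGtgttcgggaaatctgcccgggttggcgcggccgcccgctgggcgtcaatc
Rfc4: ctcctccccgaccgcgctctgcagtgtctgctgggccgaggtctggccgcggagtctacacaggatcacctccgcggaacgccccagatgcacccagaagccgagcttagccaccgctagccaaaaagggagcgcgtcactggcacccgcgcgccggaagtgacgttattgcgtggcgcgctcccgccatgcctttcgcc
These stretches lie on GRCm38.p6 at chr11:98907951-98908150 on the plus strand for Cdc6, chr8:75109309-75109508 on the plus strand for Mcm5 and chr1:128359706-128359905 on the minus strand for Mcm6. For the other three they lie on the minus strand, at chr2:132253181-132253380 for Pcna, chr6:8259142-8259341 for Rpa3 and chr16:23127731-23127930 for Rfc4. In Mcm5 the E2F letters TTTCGCGC and GCGCCAAA overlap, at 153 and 149 bases before the start, and CCAAT follows at 77 and 22 bases. Mcm6 has an overlapping pair of E2F matches at 110 and 106 bases and a further one at 47 bases. The single match of Cdc6 lies at 138 bases.

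Total counts ran from 6218378 to 7279811 in the GMYC tumors and from 4602294 to 6317404 in the GTML tumors. The model labels held in the counts of the mouse genes Myc and Mycn. Myc was at 33.3 to 165 CPM (counts scaled to the library total) in GMYC tumors and at most 8.66 CPM in GTML tumors. Mycn was at 119 to 191 CPM in GTML tumors and at most 34.3 CPM in GMYC tumors. Reads of the transgenes and of the endogenous genes cannot be told apart in these counts. GMYC replicate 6 had the lowest Myc (33.3 CPM) and the highest Mycn (34.3 CPM) of its model. Markers of Group 3 medulloblastoma identity (Otx2, Npr3, Crx, Nrl, Impg2 and Gabra5) were detected in every tumor, at a sum of 1020 to 1540 CPM in GMYC and 639 to 1680 CPM in GTML. GTML replicate 2 was set aside in earlier work on these data. The study compared the models without 1 GTML tumor, an outlier that also showed a sonic hedgehog-like signature. Neither the labels nor the published text names that tumor, so whether it is GTML replicate 2 is not stated. No subgroup was assigned here. Counts are given with GTML replicate 2 and for the other 13 tumors. Small nucleolar RNAs took at least 0.366% of counts in 6 tumors (GMYC replicates 1 to 4, GTML replicates 1 and 2) and at most 0.272% in the other 8. Y-linked genes had at least 1102 counts in all 6 GMYC and 4 GTML tumors, and at most 16 counts in GTML replicates 2, 3, 5 and 8.

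Every replication gene was expressed in every tumor, from 15 counts for Fen1 to 2242 counts for Mcm6. Per length of all annotated exons of a gene, Mcm3 was the highest in both models, with 60.5 ± 11.9 RPKM (CPM divided by the exon length in kilobases, SD, n = 6) in GMYC and 63.8 ± 12.4 RPKM (SD, n = 8) in GTML. In GMYC Pcna was next at 57.4 ± 6.32 RPKM (SD, n = 6), then the helicase subunits Mcm5, Mcm6, Mcm7 and Mcm4 at 47.4 to 56.0 RPKM. Mcm2, the remaining subunit of the same ring, was at 29.6 ± 4.49 RPKM in GMYC and 28.7 ± 7.55 RPKM in GTML. The low end held Pola2, the regulatory subunit of polymerase alpha, at 7.65 ± 1.69 RPKM in GMYC, then Gins2 (7.10 ± 1.26), Orc5 (6.64 ± 1.19) and Fen1 (3.46 ± 0.948). This order depends on the length used. Divided by the longest transcript instead, Pcna (90.7 RPKM), Mcm7 (75.5) and Rpa3 (70.0) stood above Mcm3 (66.2) in GMYC, and Mcm7 (70.0) above Mcm3 (69.7) in GTML. Mcm2 was then at 58.8 RPKM in GMYC, above Mcm4 at 47.4, and Pola2 at 22.1, while Gins2 (7.46) and Fen1 (3.53) were among the lowest by either length. In the order of levels per length of all exons, in GMYC 40 of 42 neighbouring pairs were closer than the larger of their SDs, and in GTML 41 of 42. The median member was at 28.4 RPKM in GMYC and 22.1 RPKM in GTML. Fen1 and Gins2 share 84.2% and 67.3% of their exon bases with neighbouring genes, so their low counts are uncertain.

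**Figure D1:**
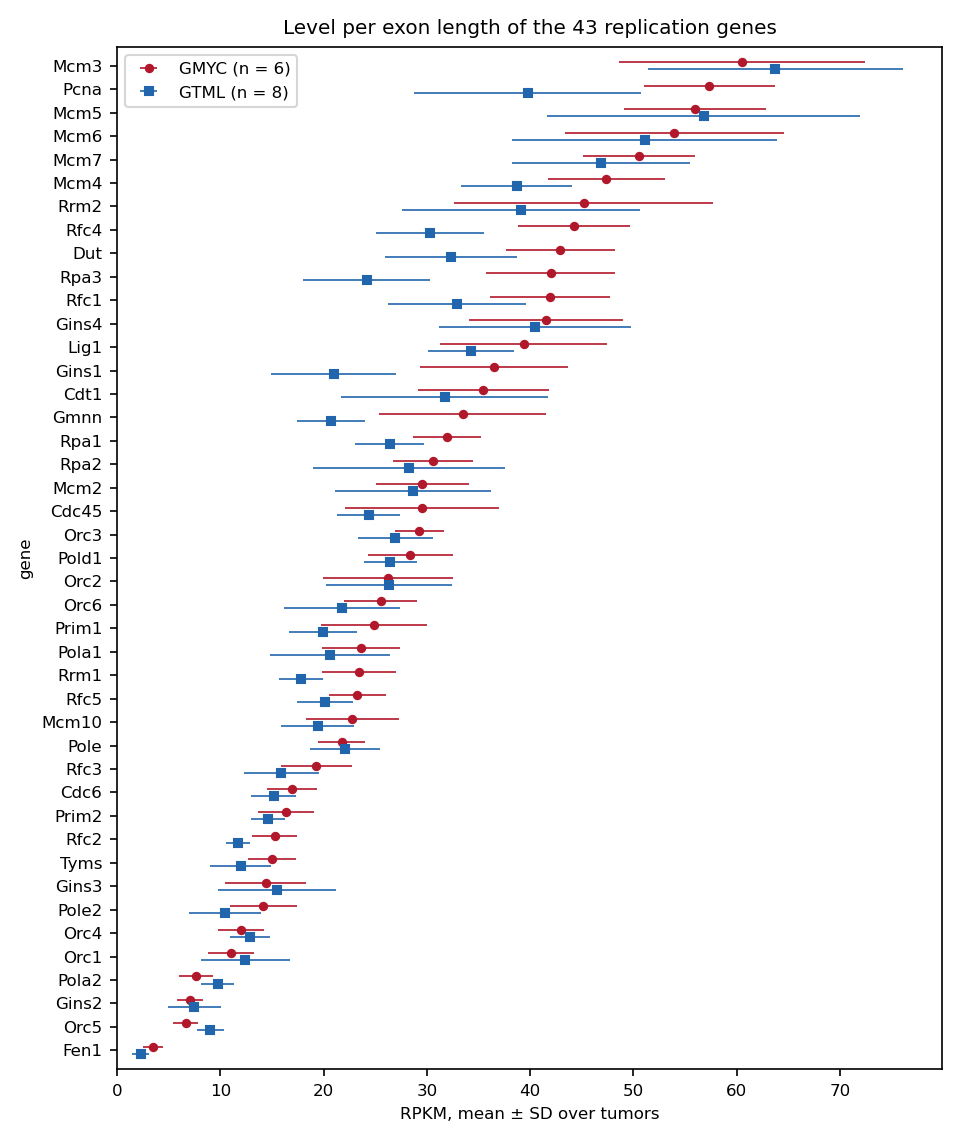
Level of each of the 43 replication genes per length of all its annotated exons. The x axis gives RPKM, points are means over 6 GMYC (red circles) and 8 GTML tumors (blue squares) and bars are SD. By this length Mcm3 stands highest and Fen1 lowest in both models, and by the longest transcript Pcna is highest in GMYC and Mcm7 in GTML.

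GMYC and GTML tumors were then compared gene by gene with edgeR's quasi-likelihood test, adjusted over 21024 genes by the Benjamini-Hochberg method, and log2 fold changes are GTML over GMYC, so that a value below 0 is higher in GMYC. At an adjusted p under 0.05, 9 of 43 replication genes differed (20.9%), close to the 21.2% of all genes tested. Of these 8 were higher in GMYC (18.6% of the members, against 9.71% of all genes) and 1, Orc5, was higher in GTML (against 11.5%). The log2 fold change was below 0 for 33 of 43 members, against 47.5% of all genes. Its median over the members was -0.20, against 0.04 over all genes tested and 0.06 over the 15333 protein-coding ones. At the stricter limit of adjusted p under 0.01 and a log2 change above 1, 0 members passed (3.22% of all genes did), and 15 members had an unadjusted p under 0.05. The largest difference was a 1.74-fold higher level, of Gins1 in GMYC. In bulk tumor RNA, fewer cells in S phase and less of each RNA per cell cannot be told apart.

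**Figure D2:**
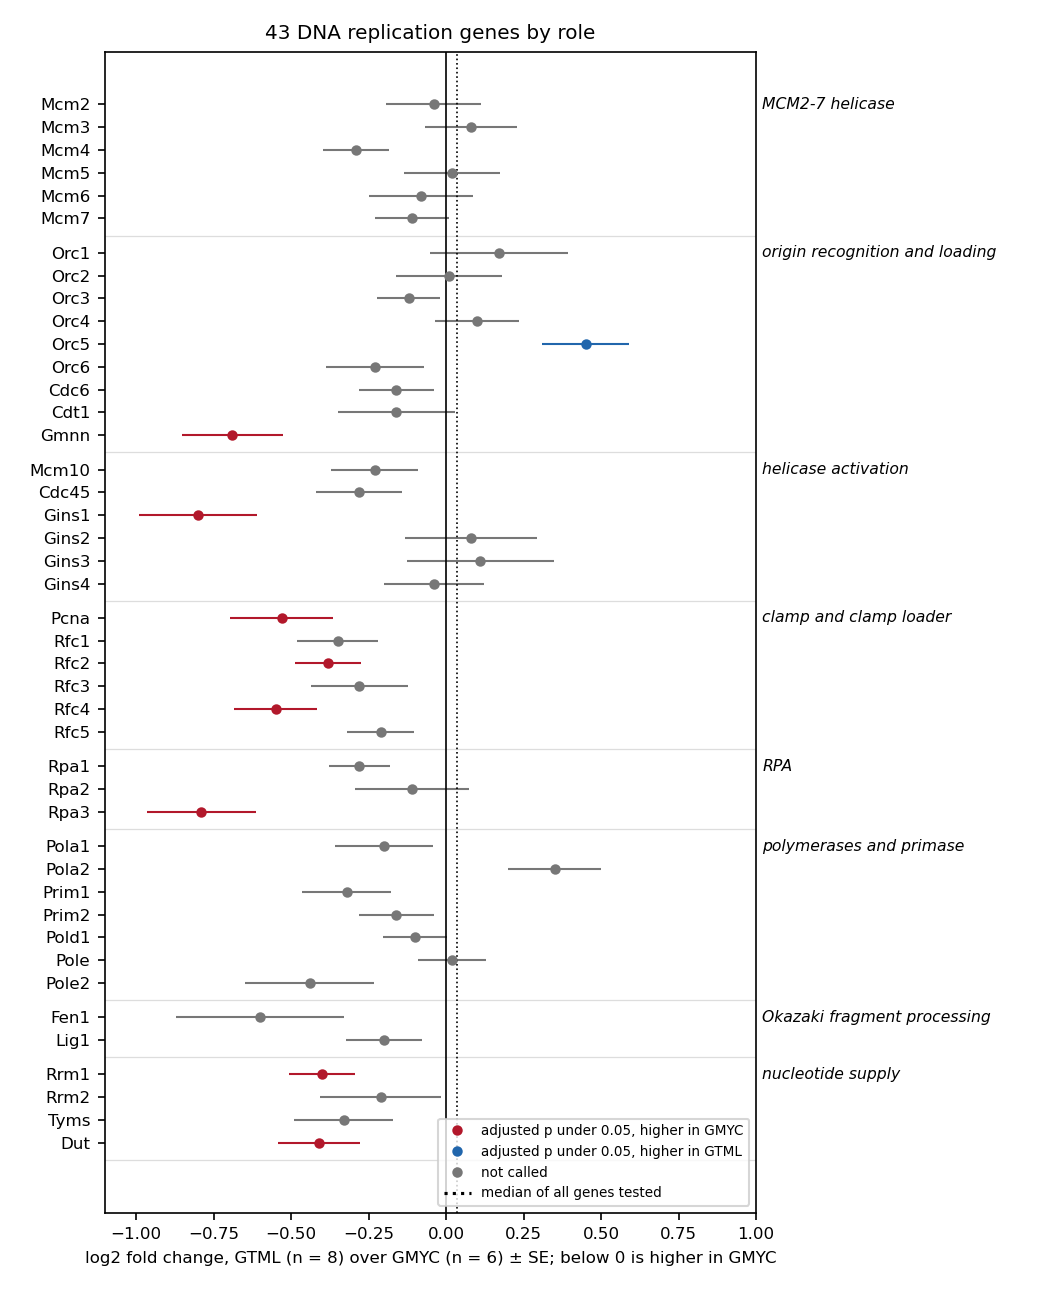
Log2 fold change of the 43 replication genes between 8 GTML and 6 GMYC tumors, grouped by role. Points are estimates and bars are SE, and the dotted line is the median of all genes tested (0.04). Clamp and clamp loader genes all lie below 0, while 5 of the 6 MCM2-7 subunits lie within 0.11 of 0.

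Without GTML replicate 2, 17 members differed, 16 of them higher in GMYC, and again Orc5 higher in GTML. The share of all genes that passed was also larger, at 30.7% of 20936 genes, with 15.1% higher in GMYC and 15.6% higher in GTML. The added genes were Mcm4, Orc6, Rfc1, Rfc5, Rpa1, Pola1, Pole2 and Tyms. The median over the members was then -0.25. GMYC replicate 3 was among the tumors that pulled the other way. Without it 5 members differed (11.6%, against 12.5% of all genes), 4 of them higher in GMYC (9.3%, against 5.65%), and the median was -0.16. Without GMYC replicate 5 or 6 or GTML replicate 3 or 5, 6 members differed (14.0%), all higher in GMYC. The share of all genes in those fits is not given here. Without GMYC replicate 6 the median was -0.14.

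No subunit of the MCM2-7 ring, the motor of the replicative helicase, passed the edgeR test in the 14 tumors, where 1 had an unadjusted p under 0.05, and DESeq2 and limma-voom also called 0. On the same tumors, edgeR on protein-coding genes only called 1 subunit. With the trend on transcript length removed, edgeR called Mcm4 (-0.38, adjusted p = 0.0339). Mcm3, Mcm5, Mcm2, Mcm6 and Mcm7 had log2 fold changes of 0.08, 0.02, -0.04, -0.08 and -0.11, with SE of 0.119 to 0.168. Each of these 5 values lay within 1 SE of 0, and all 5 subunits overlapped widely between the models. Mcm4 had the largest difference of the 6, at 138, 168 and 194 CPM in the lowest, median and highest GMYC tumor and 117, 133 and 170 CPM in GTML. Its ranges overlapped, and its log2 fold change of -0.29 (SE 0.107) did not pass the edgeR test (adjusted p = 0.062). Without GTML replicate 2 Mcm4 passed, at -0.34 (adjusted p = 0.0218), as it did without GMYC replicate 4 and without GTML replicate 4. GTML replicate 2 had the highest level of every subunit in its model, for Mcm2 at 314 CPM with the next GTML tumor at 237 CPM. GMYC replicate 4 was the lowest GMYC tumor, and GTML replicate 6 the lowest GTML tumor, for all 6 subunits.

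Among the 9 genes of origin recognition and loading, the difference fell on both sides of 0. Gmnn on chromosome 13, which encodes geminin, the inhibitor of CDT1, was at 34.3, 47.8 and 68.6 CPM in the lowest, median and highest GMYC tumor. In GTML it was at 23.6, 31.2 and 36.7 CPM. Only the lowest GMYC tumor, replicate 4, lay within the GTML range. Gmnn was 1.62-fold higher in GMYC (log2 fold change -0.69, SE 0.163, edgeR adjusted p = 0.0111). Orc5 on chromosome 5, a subunit of the origin recognition complex, was the one member called higher in GTML. Its levels were 29.5, 41.1 and 50.4 CPM in GMYC and 46.5, 54.1 and 70.6 CPM in GTML, and GMYC replicate 3 was the only GMYC tumor that reached into the GTML range. The log2 fold change was 0.45 (SE 0.141, edgeR adjusted p = 0.0358), or 1.36-fold. The call was lost when GMYC replicate 2, 4, 5 or 6 or GTML replicate 3, 5 or 8 was left out, with an adjusted p of up to 0.0665.

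The other 5 subunits of the origin recognition complex did not pass in the 14 tumors, with log2 fold changes of 0.17 for Orc1, the ATPase that binds origins, 0.10 for Orc4, 0.01 for Orc2, -0.12 for Orc3 and -0.23 for Orc6. Orc6 passed without GTML replicate 2 (-0.35, adjusted p = 0.0363). Cdc6 and Cdt1, the loading factors, were both at -0.16 and overlapped between the models. Orc2 shares 29.8% of its exon bases with the neighbouring Nif3l1, so its value carries that uncertainty.

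In helicase activation, Gins1 on chromosome 2 had the largest difference of the 43 genes. It encodes PSF1, a subunit of the GINS tetramer, and was at 39.4, 54.7 and 68.3 CPM in GMYC and 22.9, 28.1 and 45.7 CPM in GTML. GTML replicates 2 and 4 were the GTML tumors that lay above the lowest GMYC tumor. Gins1 was 1.74-fold higher in GMYC (log2 fold change -0.80, SE 0.19, edgeR adjusted p = 0.0116). The other 3 subunits of the same tetramer did not pass, with Gins2 at 0.08 (SE 0.213), Gins3 at 0.11 (SE 0.237) and Gins4 at -0.04 (SE 0.161). Cdc45, the partner of GINS in the active helicase, was at -0.28 (adjusted p = 0.155), and Mcm10, which helps origins fire, at -0.23 (adjusted p = 0.241).

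Of the sliding clamp and its 5-subunit loader, all 6 log2 fold changes were below 0, from -0.55 for Rfc4 to -0.21 for Rfc5, with a median of -0.37, and 3 passed the test. Pcna on chromosome 2, the clamp itself, was at 111, 137 and 154 CPM in GMYC and 55.8, 93.9 and 128 CPM in GTML. The upper GTML tumors, replicates 4, 2 and 8, lay above the lowest GMYC tumor. The log2 fold change was -0.53 (SE 0.167, edgeR adjusted p = 0.0362), or 1.44-fold. Pcna lost its call when GMYC replicate 1, 3, 5 or 6 or GTML replicate 3, 5 or 7 was left out, with an adjusted p of up to 0.081. The processed pseudogene Pcna-ps2, which could share reads with Pcna, had 94 to 455 counts and was also higher in GMYC (-0.86, SE 0.205, edgeR adjusted p = 0.0113). Summed over both, the level was 155, 199 and 217 CPM in GMYC and 80.0, 125 and 172 CPM in GTML.

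Rfc4 on chromosome 16 and Rfc2 on chromosome 5 encode small subunits of the clamp loader. Rfc4 was at 54.9, 70.9 and 77.3 CPM in GMYC and 34.6, 47.7 and 56.8 CPM in GTML, with GTML replicate 4 alone above the lowest GMYC tumor. Its log2 fold change was -0.55 (SE 0.134, edgeR adjusted p = 0.0132). Rfc2 was at 84.1, 92.5 and 114 CPM in GMYC and 65.5, 72.5 and 88.3 CPM in GTML, and GTML replicate 2 was the only GTML tumor that reached the GMYC range. Its log2 fold change was -0.38 (SE 0.107, edgeR adjusted p = 0.022), and it lost the call without GMYC replicate 3 (adjusted p = 0.062). Rfc1, the large subunit, was at -0.35 (adjusted p = 0.0655), Rfc3 at -0.28 (adjusted p = 0.204) and Rfc5 at -0.21 (adjusted p = 0.172). Without GTML replicate 2, Rfc1 (-0.44, adjusted p = 0.00781) and Rfc5 (-0.27, adjusted p = 0.0404) passed as well, so that 5 of the 6 did. Rfc1 also passed without GMYC replicate 4.

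RPA, the trimer that covers single-stranded DNA, had the member with the smallest p. Rpa3 on chromosome 6, its smallest subunit, was at 39.2, 45.5 and 59.0 CPM in GMYC and 18.5, 27.6 and 37.7 CPM in GTML. It was the one gene of the 43 whose models did not overlap (2.48% of all genes did not overlap with GMYC higher), and Rfc2 joined it when GTML replicate 2 was set aside (4.23%). Rpa3 was 1.73-fold higher in GMYC (log2 fold change -0.79, SE 0.176, edgeR adjusted p = 0.00878). Rpa1, which holds most of the DNA-binding surface, was at -0.28 (SE 0.0989, adjusted p = 0.0574). It passed without GTML replicate 2 (-0.33, adjusted p = 0.015), without GMYC replicate 2 and without GTML replicate 4. Rpa2 was at -0.11 (adjusted p = 0.675).

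No polymerase or primase gene passed the edgeR test in the 14 tumors, where 2 had an unadjusted p under 0.05, and DESeq2 and limma-voom also called 0. Pole2, the second subunit of polymerase epsilon, had the largest value of the 7, at 29.5, 39.3 and 54.2 CPM in GMYC and 20.9, 28.2 and 52.9 CPM in GTML. Its log2 fold change was -0.44 (SE 0.209, edgeR adjusted p = 0.138). GTML replicate 2 alone set the upper end, with the next GTML tumor at 33.7 CPM, and without it Pole2 passed at -0.60 (adjusted p = 0.0161). Pola1, the catalytic subunit of polymerase alpha, was at -0.20 (adjusted p = 0.373) and without that tumor at -0.34 (adjusted p = 0.0238). Its partner Pola2 had the opposite sign at 0.35 (SE 0.149, adjusted p = 0.102), and at 0.30 without GTML replicate 2. The primase genes Prim1 and Prim2 were at -0.32 and -0.16. The leading-strand and lagging-strand catalytic genes Pole and Pold1 were at 0.02 (SE 0.109) and -0.10 (SE 0.102).

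On the lagging strand, Fen1, the flap nuclease, was at 5.78, 7.83 and 12.6 CPM in GMYC and 3.23, 5.09 and 8.74 CPM in GTML. Its log2 fold change of -0.60 had the widest error of the 43 genes (SE 0.27, edgeR adjusted p = 0.117). Fen1 overlaps an antisense gene and Tmem258 in the annotation, and the strand setting of the counting was not given, so this value is uncertain. Lig1, the ligase that seals the fragments, was at -0.20 (SE 0.122, adjusted p = 0.239).

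All 4 genes of nucleotide supply were below 0, and 2 passed. Rrm1 on chromosome 7, the large subunit of ribonucleotide reductase, was at 197, 253 and 311 CPM in GMYC and 163, 195 and 231 CPM in GTML, and 4 of the 8 GTML tumors lay above the lowest GMYC tumor. The log2 fold change was -0.40 (SE 0.108, edgeR adjusted p = 0.02), and without GMYC replicate 3 the adjusted p was 0.0528. Rrm2, the small subunit that rises in S phase, was at 96.6, 111 and 191 CPM in GMYC and 73.4, 93.5 and 165 CPM in GTML, a log2 fold change of -0.21 with a wider error (SE 0.195, adjusted p = 0.453). Dut on chromosome 2, which removes dUTP, was at 89.1, 102 and 123 CPM in GMYC and 60.0, 71.7 and 105 CPM in GTML, where replicates 1 and 2 lay above the lowest GMYC tumor. Its log2 fold change was -0.41 (SE 0.133, edgeR adjusted p = 0.04). Dut was the least stable of the 9 calls and kept it in 5 of the 14 fits without 1 tumor, namely those without GMYC replicate 2 or 4 or GTML replicate 1, 2 or 4. Its adjusted p was at most 0.101 in the others. Tyms, thymidylate synthase, was at -0.33 (adjusted p = 0.147) and passed without GTML replicate 2 (-0.43, adjusted p = 0.0296).

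**Figure D3:**
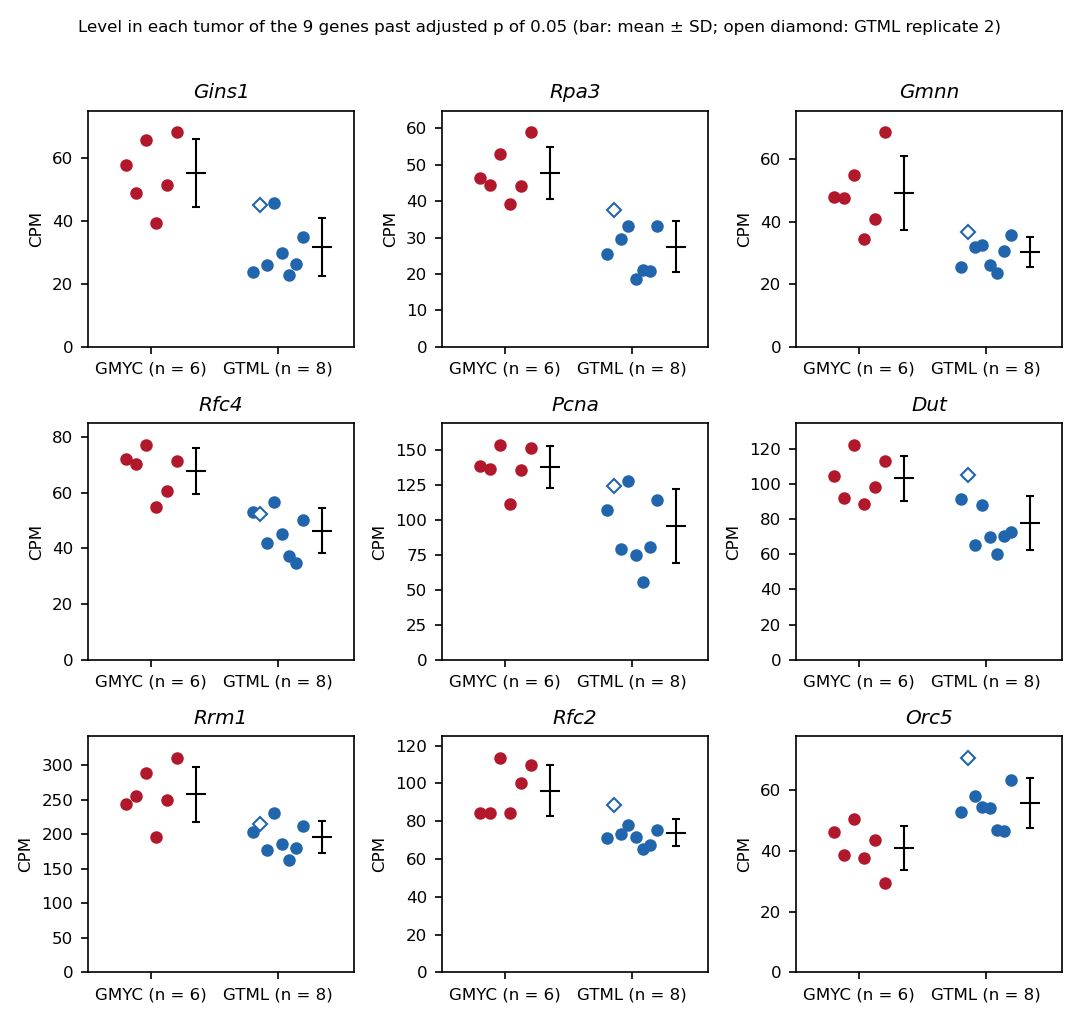
CPM in each tumor of the 9 replication genes with an edgeR adjusted p under 0.05, with 6 GMYC tumors in red and 8 GTML tumors in blue. Bars give the mean and SD, and the open diamond is GTML replicate 2. Rpa3 is the one gene without overlap, and Orc5 is the one gene higher in GTML.

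The same tumors were high or low for most of the 43 genes. As the mean over the members of the log2 CPM deviation from the midpoint of both models, GMYC replicates 3 and 6 stood at 0.33 and 0.28 and GMYC replicate 4 at -0.18. In GTML, replicate 2 stood at 0.30, replicate 4 at 0.12 and the other 6 between -0.37 and -0.11. The medians were 0.08 in GMYC and -0.17 in GTML, and the ranges of the models overlapped. GTML replicate 2 was the highest GTML tumor for 27 of 43 genes, GMYC replicate 4 the lowest GMYC tumor for 31, and GTML replicate 6 the lowest of all 14 for 16.

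GMYC replicate 6 and GTML replicate 2 both stood above the midpoint in most roles. GMYC replicate 6 was at 0.47 for nucleotide supply, 0.45 for helicase activation, 0.41 for both the clamp and RPA and 0.24 for the polymerases. GTML replicate 2 was at 0.29, 0.36, 0.20, 0.32 and 0.29 for the same groups. Their values lay farther apart for the MCM2-7 subunits (0.10 in GMYC replicate 6, 0.47 in GTML replicate 2), origin recognition and loading (-0.03 and 0.35), the 2 lagging-strand genes (0.75 and -0.32) and 22 mitotic genes (0.79 and 0.17). The between-tumor SD of log2 CPM had a median of 0.24 in GMYC and 0.28 in GTML, and 0.22 in GTML without replicate 2. Fen1, Orc1 and Gins3 varied most in GTML (SD 0.52, 0.51 and 0.48), and Rfc2 least (SD 0.13).

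**Figure D4:**
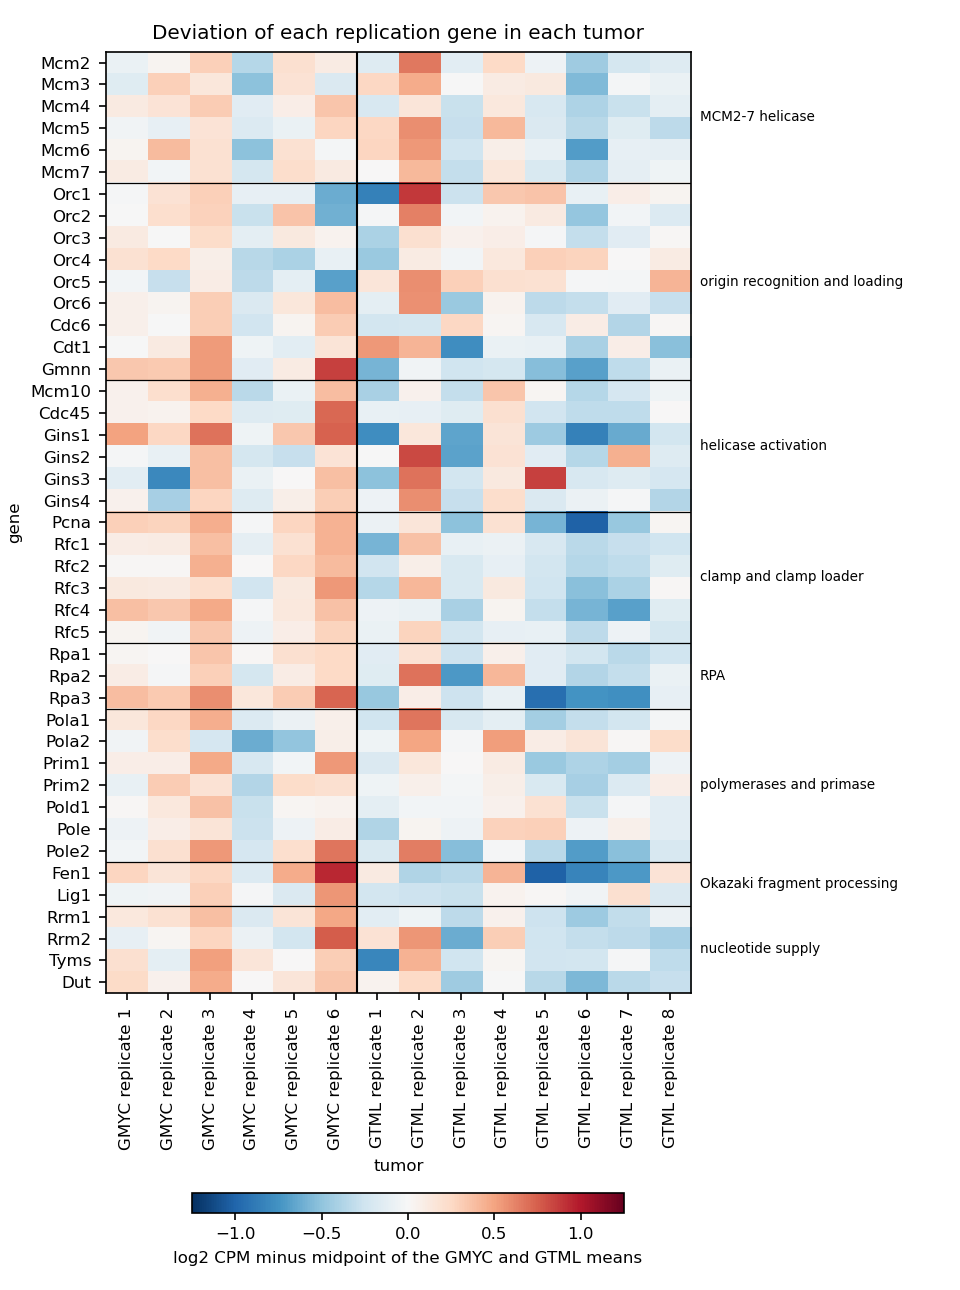
Deviation of each replication gene (rows, by role) in each of 6 GMYC and 8 GTML tumors (columns), as log2 CPM minus the midpoint of the GMYC and GTML means. GTML replicate 2 lies above the midpoint for the MCM2-7 subunits, Orc1 to Orc6 and Cdt1, and below it for Cdc6 and Gmnn. GTML replicate 6 is low in most rows.

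Transcript length moved with these results. Across 15333 protein-coding genes the median log2 fold change ran from -0.24 for a longest transcript of up to 1000 bases to 0.17 above 5000 bases. Of the 10 replication genes with a longest transcript of up to 2000 bases, 6 were called higher in GMYC (Rpa3, Gins1, Gmnn, Rfc4, Pcna and Dut), against 11.8% of protein-coding genes of that length. Of the 33 longer ones 2 were (Rfc2 and Rrm1), against 6.75%. The median over the members was -0.48 in the short class and -0.16 in the long one, below the medians of all protein-coding genes of those lengths, at -0.10 and 0.09. Protein-coding genes with more counts per exon base had lower medians, at -0.39 up to 1000 bases and -0.24 from there to 2000. Theirs were -0.13 for 2000 to 3000 bases, -0.09 to 4000, -0.02 to 5000 and 0.08 above. The members had -0.79, -0.44, -0.16, -0.07, -0.19 and -0.24 in the same classes. They lay close to those genes between 2000 and 4000 bases and below them elsewhere.

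With the trend of each tumor on transcript length removed, 11 members were called, all higher in GMYC, where 21.0% of all genes with a length were called and 10.5% were higher in GMYC. The 8 genes higher in GMYC kept their calls, at -0.66 for Gins1, -0.56 for Gmnn, -0.54 for Rpa3 and Rrm1, -0.51 for Rfc2, -0.48 for Pcna, -0.45 for Rfc4 and -0.43 for Dut. Mcm4 (-0.38), Rfc1 (-0.47) and Rpa1 (-0.40) were called as well. Orc5, at 0.36, no longer passed (adjusted p = 0.0819). The median over the members was -0.28, against -0.02 over all genes in that fit.

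**Figure D5:**
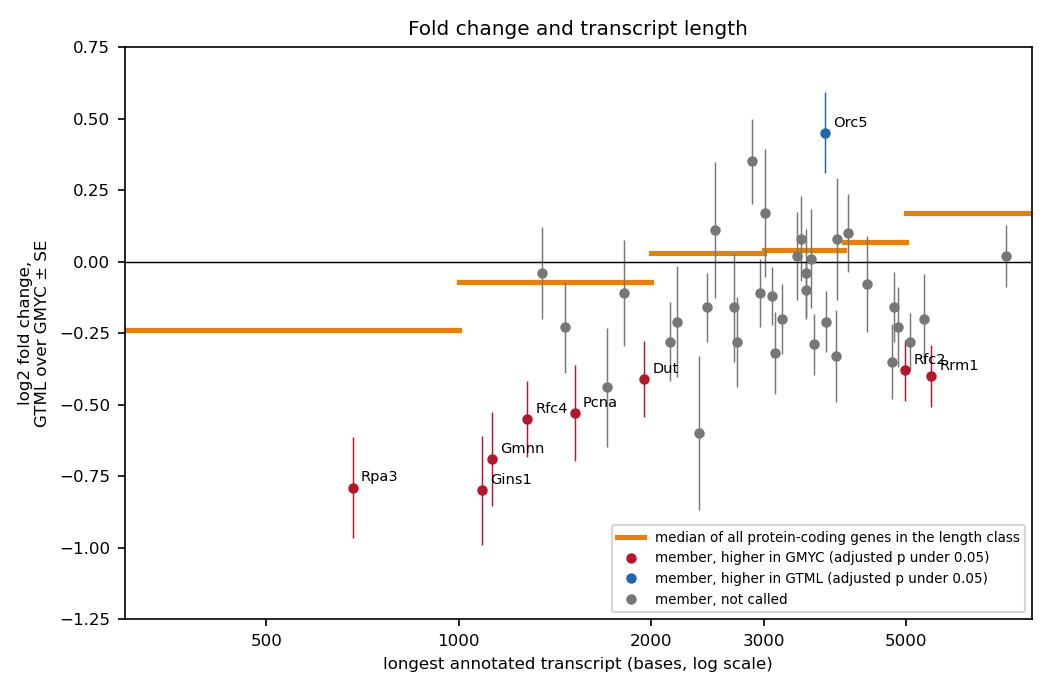
Log2 fold change of the replication genes, GTML over GMYC with SE bars, against the longest annotated transcript on a log axis. Orange bars are the medians of all protein-coding genes in each length class, from -0.24 to 0.17, and the shortest members (Rpa3, Gins1 and Gmnn) lie lowest.

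The split by small nucleolar RNA share also moved with the result. With a term for the split over all 14 tumors, 7 members were called (16.3%, against 13.6% of all genes), 6 of them higher in GMYC (14.0%, against 6.77%), and the median was -0.17. Among the 8 tumors with the lower share (2 GMYC, 6 GTML), 7 members were called, all higher in GMYC, where 13.3% of all genes were called and 6.69% were higher in GMYC, and the median was -0.32. Among the 6 with the higher share (4 GMYC, 2 GTML) no member was called by edgeR, 2 members had an unadjusted p under 0.05, 2 of 18921 genes (0.0106%) were called at all, and the median was -0.04. In the higher-share tumors Mcm5 and Mcm3 had values of 0.47 and 0.40, and Gins1 and Rpa3 of -0.61 and -0.52. GTML replicate 2 is 1 of the 2 GTML tumors there. With a term for the presence of Y-linked counts, 6 members were called, all higher in GMYC (14.0%), where 9.76% of all genes were called and 3.62% were higher in GMYC. The part of these in the differences was not tested beyond these fits.

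Other cell types were measured through summed marker levels. Microglia and macrophage markers, 11 in all, summed to 253 to 399 CPM in GMYC and 131 to 546 CPM in GTML, endothelial markers (6) to 62.9 to 174 and 121 to 267 CPM, and oligodendrocyte markers (6) to 111 to 294 and 110 to 303 CPM. Astrocyte markers (6) summed to 141 to 564 CPM in GMYC and 43.5 to 304 CPM in GTML, and cerebellar neuron markers (6) to 14.5 to 180 and 17.2 to 39.8 CPM. All of these ranges overlapped between the models, but their medians were not alike. All 6 astrocyte markers had log2 fold changes below 0, with a median of -0.88 and 0 called by edgeR (2 at an unadjusted p under 0.05), and their sum had a median of 381 CPM in GMYC and 180 CPM in GTML. The medians of the log2 fold changes were -0.32 for microglia and macrophages, 0.26 for endothelium, 0.02 for oligodendrocytes and -0.79 for the 5 cerebellar neuron markers tested. Called markers were Cd68 (-0.65, adjusted p = 0.0468) and Cbln3 (-3.39, adjusted p = 0.035), higher in GMYC, and Kdr (1.34, adjusted p = 0.035) and Mog (1.56, adjusted p = 0.0104), higher in GTML. The Cbln3 value was set by GMYC replicates 1 and 3 at 62.5 and 11.3 CPM, with its median at 0.905 CPM in GMYC and 1.11 CPM in GTML. No marker was at 0 in all tumors. Their part in the replication genes was not tested.

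Genes that work beside the replication machinery were read from 3 further lists. Of 39 replication partners, such as checkpoint mediators, accessory polymerase subunits and chromatin assembly factors, 33 were below 0, 7 were called, all higher in GMYC (17.9%, against 9.71% of all genes), and the median was -0.21. The smallest p were those of Dscc1, a subunit of an alternative clamp loader (-0.81, SE 0.211, edgeR adjusted p = 0.0164), Mcm8, an MCM relative in recombination (-0.46, SE 0.121, adjusted p = 0.0167), and Dck, the deoxycytidine kinase of nucleotide salvage (-0.50, SE 0.151, adjusted p = 0.0311). Dck lost its call without GMYC replicate 3 or 6 or GTML replicate 3, 5 or 8, with an adjusted p of up to 0.0725. The count was 2 without GMYC replicate 3 (5.13%, against 5.65% of all genes) and 2 without GTML replicate 5. It was at most 4 without any 1 of GMYC replicates 1, 2, 5 and 6 and GTML replicates 3, 6, 7 and 8. For these fits and the one without GTML replicate 5 the share of all genes is not given here. Their counts can therefore not be set against it. Without GTML replicate 2 it was 12 (30.8%, against 15.1%).

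Of 22 mitotic genes 21 were below 0, 8 were called, all higher in GMYC (36.4%, against 9.71% of all genes), and the median was -0.37. They included Ccnb1, cyclin B1, at 153 ± 43.3 CPM in GMYC (SD, n = 6) and 89.5 ± 27.1 CPM in GTML (SD, n = 8), a log2 fold change of -0.77 (SE 0.206, edgeR adjusted p = 0.0176). The spindle motor Kif11 and the ubiquitin carrier Ube2c were both at -0.65 (adjusted p = 0.0183 and 0.0211), and Ube2c lost its call without GMYC replicate 3 (adjusted p = 0.0515). Mki67, which encodes the proliferation antigen Ki67, was at -0.18 (adjusted p = 0.448). Without GMYC replicate 3 the count fell to 2 (9.09%, against 5.65% of all genes). It was 3 without GMYC replicate 6 and 4 without GTML replicate 5, where the share of all genes is not given here.

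Of 27 genes of the E2F and RB circuit 14 were below 0 and 5 were called (18.5%, against 21.2% of all genes), 3 higher in GMYC (11.1%, against 9.71%) and 2 higher in GTML, with a median of -0.01. Ccnd1, cyclin D1, was higher in GTML at 111 ± 22.5 CPM (SD, n = 8) against 34.1 ± 21.6 CPM (SD, n = 6), a log2 fold change of 1.71 (SE 0.291, edgeR adjusted p = 0.00323). Cdk2 and Cdk4, kinases of the G1 to S transition, were higher in GMYC at -0.64 (SE 0.141, adjusted p = 0.00848) and -0.40 (SE 0.103, adjusted p = 0.0149). The remaining calls were Rbl2, the RB relative p130, higher in GTML at 0.60 (adjusted p = 0.0206), and E2f6, a repressive E2F, higher in GMYC at -0.43 (adjusted p = 0.0446). E2f6 kept its call in only 3 of the 14 fits without 1 tumor, those without GMYC replicate 2 or GTML replicate 2 or 3.

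Set beside the promoter letters shown above, none of the 6 called members with a promoter window (Rpa3, Rfc4, Rrm1, Orc5, Pcna and Dut) held the E2F letters. Gins1, Gmnn and Rfc2, also called, had no window. The 14 members that held them had log2 fold changes from -0.44 to 0.17 with a median of -0.12, and the 21 members without them had a median of -0.28. The MCM genes Mcm3, Mcm5, Mcm6 and Mcm7, all with E2F letters, had values between -0.11 and 0.08. No test was made of this division. E2F letters outside these windows were not searched, nor were other spellings of the site within them. Genes without the letters can therefore still hold an E2F site. The E-box, in 7 of the 35 members with a window, was in none of the 6 called ones. CCAAT, in 22 of the 35, was in 3 of the 6, Pcna, Rpa3 and Rrm1. These divisions were not tested either.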

How the data were processed

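RNA of 14 brain tumor biopsies (6 GMYC, 8 GTML) had been extracted with a silica column kit and sequenced on the Ion Proton. The authors aligned reads to mm9 with STAR and then Bowtie2 and deposited raw counts per gene from featureCounts, and the submitters' processing notes give STAR 2.4.0, Bowtie2 2.2 and Subread 1.5.2, which differ in part from the versions in the published methods. Strand setting and duplicate handling were not given in the sources used here. The members and all gene lists were chosen with earlier results of these data known.

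The filter asked for more than 1 CPM in 3 or more tumors, which 21024 of 37310 genes and all 43 members passed, and counts were scaled by TMM and tested with edgeR 4.0.16 (glmQLFit and glmQLFTest, R 4.3.3), GTML against GMYC, with Benjamini-Hochberg adjustment. The SE is the log2 fold change divided by the square root of F. CPM used TMM-scaled totals (factors 0.975 to 1.04), and RPKM the union of exons of the GRCm38 annotation, matched by Ensembl identifier for 32620 genes (87.4%). No mm9 coordinates are printed. Genes given in full were members with an adjusted p under 0.05, the member with the largest absolute fold change in each role, and the 3 smallest p of each further list. The others, Mki67, Rbl2 and E2f6 included, were named after their values were seen. Alternatives were DESeq2 1.42.0, limma-voom (limma 3.58.1), other filters and normalization, protein-coding genes only, the replicate number as a block, the small nucleolar RNA split, thinned counts and leaving out each tumor. The transcript length trend, the Y-linked term and limma-voom on 13 tumors were added after the data had been seen. The fits were checked on simulated counts in which 200 genes were changed. There edgeR called 5 of 62 genes with a true log2 change of 0.5 (8.06%) and 29 of 67 with a change of 1 (43.3%). A gene that did not pass can therefore still differ. More genes differed between the tumors than in the simulation, so these rates do not carry over directly. The p-values set the difference between the models against the spread between these biopsies. The labels do not say whether the biopsies came from separate mice. The other 18 of 32 samples, cell lines in a table of 18 columns of per-sample values whose names matched no label, were not used here. Promoter windows were used as RefSeq gives them, and 8 members had no promoter window. In 36 of the 42 windows of the members, bases just after the start matched an annotated transcript.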

Additional observations from a re-analysis of the deposited data

Results flagged for a closer look

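Within the 8 GTML tumors, 6 of the 43 replication genes had a tumor far from the others, by the gap to the next tumor relative to the range of the model, and each time it was GTML replicate 2 at the top. Orc2 was at 153 CPM there (next tumor 107 CPM), Orc6 at 85.4 CPM (59.2), Rfc1 at 285 CPM (211), Rfc5 at 122 CPM (96.0), Pola1 at 303 CPM (188) and Pole2 at 52.9 CPM (33.7). Of 86 groups tested (43 genes in each model) 6 were flagged, where chance gives about 4.3, and the genes of 1 tumor are not independent. No gene was flagged in GMYC. Orc6, Rfc1, Rfc5, Pola1 and Pole2 passed the edgeR test without this tumor and not with it, and Orc2 in neither fit.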

How the results depend on the processing

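The 29 alternatives left the sign of all 9 called genes as it was, and 20 uncalled members changed sign under at least 1. With the share of all genes called in the same fit in parentheses, DESeq2 called 10 members (27.9%), limma-voom 9 (21.4%), no TMM 9 (21.4%), a filter of CPM above 5 9 (23.0%), thinned counts 7 (19.4%), no filter 7 (11.6%) and protein-coding genes only 12 (19.3%). Replication genes called higher in GMYC numbered 0 with the replicate block, 0 among tumors of the higher small nucleolar RNA share, 16 with limma-voom on 13 tumors (16.0% of all genes), 17 with the length trend removed on 13 tumors (16.1%), and 4 to 16 leaving out 1 tumor. Those called higher in GTML numbered 0 (1 in the comparison reported) with no filter, the replicate block, either side of the small nucleolar RNA split, thinned counts, either length fit and the Y-linked term, and 0 to 1 leaving out 1 tumor. The median ranged from -0.25 to -0.14 leaving out 1 tumor. Partners called higher in GMYC numbered 0 with the block and 0 in the higher-share tumors, 4 in the lower-share tumors and 4 with a term for the split, 12 with limma-voom and 14 with the length trend removed on 13 tumors, 1 with the Y-linked term and 2 to 12 leaving out 1 tumor, with 0 to 1 called higher in GTML and a median of -0.25 to -0.15. E2F and RB genes called higher in GMYC numbered 0 with the block, 0 in the higher-share tumors, 6 with the length trend removed on 13 tumors, 1 with the Y-linked term and 2 to 4 leaving out 1 tumor. Those called higher in GTML numbered 1 with the block, 0 in the higher-share and 1 in the lower-share tumors, and 2 to 3 leaving out 1 tumor, and the median was 0.09 in the higher-share tumors, -0.12 with the length trend removed on 13 tumors and -0.03 to 0.10 leaving out 1 tumor. Mitotic genes called higher in GMYC numbered 0 with the block, 4 with a term for the split, 0 in the higher-share tumors, 14 with the length trend removed on 13 tumors, 2 with the Y-linked term and 2 to 11 leaving out 1 tumor, with a median of -0.46 to -0.26. Over all genes, the share called higher in GMYC was 0.414% with the block, 6.77% with a term for the split and 0.0106% in the higher-share tumors. It was 6.69% in the lower-share tumors, 3.62% with the Y-linked term and 16.1% with the length trend removed on 13 tumors. Leaving out GMYC replicate 3 it was 5.65%, and leaving out GTML replicate 2 it was 15.1%. For the other fits without 1 tumor it is not given here. The share called higher in GTML was 0.78% with the block and 6.66% in the lower-share tumors. With the longest transcript as gene length the median member was at 41.3 RPKM in GMYC and 35.4 RPKM in GTML. The cause of these shifts was not tested.

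Both models carry replicate numbers, but these share only a number. The correlation of the deviations of GMYC and GTML tumors with the same number was 0.24, -0.02, -0.04, -0.21, 0.03 and -0.14 for numbers 1 to 6, and only number 1 of the 6 matched its own number best. With the replicate block 251 genes (1.19%) were called and 0 members, with 8 members at an unadjusted p under 0.05. GTML replicates 7 and 8 have no GMYC partner in the block. The depth, 15 to 2242 counts per member and tumor, limits the precision of Fen1 most.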
